A study of Mus musculus with 18 samples.

Results

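The genes that write, copy and erase DNA methylation were measured by RNA-seq in 6 kinds of cultured mouse pluripotent stem cell. They comprised 10 genes of the 35773 counted, chosen by name, and all 10 were tested: the methyltransferases *Dnmt1*, *Dnmt3a* and *Dnmt3b*, the cofactor *Dnmt3l*, the ring finger proteins *Uhrf1* and *Uhrf2*, the TET dioxygenases *Tet1*, *Tet2* and *Tet3*, and the glycosylase *Tdg*. The labels give strain 129S2/SvPasCrl and a wild type genotype for all 18 samples, 3 in each group. ESCs were naive embryonic stem cells grown in 2iL, medium with LIF and inhibitors of MEK and GSK3. EpiLCs were epiblast-like cells, EpiSCs were epiblast stem cells, and AFSCs were primed cells kept in activin A and FGF2. ASCs, the advanced pluripotent stem cells of the study, came from AFSCs moved to ABCL medium (activin A, BMP4, the GSK3 inhibitor CHIR99021 and LIF), and ESC-ASCs were reached from 2iL ESCs instead. The study's methods describe several reporter lines on mixed backgrounds, so the line behind each group may differ from the strain in the labels. Headers of the AFSC count files carry the name ASC, those of the ASC files the name ABCL, and those of the 3 ESC-ASC files a name found in no label, so that the identity of ESC-ASCs rests on the labels. Medium, line and derivation route differ together between most groups and cannot be told apart. Nothing in the labels says whether the 3 samples of a group were separate cultures. A figure caption of the study calls its RNA-seq samples biological replicates without saying how they were grown. The p-values thus measure the spread between these samples.

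DNA methylation in mammals is laid down by DNMT3A and DNMT3B, which methylate new CpG sites, and copied at replication by DNMT1, which UHRF1 brings to the half-methylated sites behind the fork. DNMT3L has no catalytic activity of its own and stimulates the DNMT3 enzymes. It is known for its part in germ cells and is abundant in early embryonic cells. TET enzymes oxidize 5-methylcytosine, and TDG cuts out the more oxidized bases so that base excision repair can restore cytosine. Naive ESCs in 2i are known for low methylation and epiblast-stage cells for high methylation. The study's own bisulfite sequencing found ASCs highly methylated, nearer to EpiSCs than to naive ESCs. Methylation itself was not analysed here, so RNA levels of the enzymes do not stand for it.

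Total counts ran from 4961934 to 18071600 a sample. The 3 ESC-ASC samples were the deepest, at 17813619 or more against at most 9906473 elsewhere, so depth and the ESC-ASC group coincide. Summed levels of 8 naive markers were 6212 to 6886 normalized read counts per kb in ESCs, 3442 to 3759 in ESC-ASCs and 4648 to 5813 in ASCs. They were 24.4 to 25.5 in EpiSCs, 99.1 to 121 in AFSCs and 140.1 to 177 in EpiLCs. *Prdm14* was at 0 in AFSCs and *Zfp42* in EpiSCs. Formative and primed markers ran the other way, from 111 to 118 in ESCs to 3093 to 3323 in EpiSCs. The naive and the primed sums thus follow the labels. Markers of primitive endoderm were highest in EpiSCs, at 68.0 to 69.2, trophoblast markers in ESCs, at 155 to 163, and fibroblast markers in EpiLCs and ASCs, at 111 to 126 and 75.2 to 117. Their part in the results was not tested. In AFSCs the primitive endoderm sum was only 4.22 to 8.48. *Gata4*, *Gata6*, *Sox17* and *Pdgfra*, the 4 of these markers tested, were each lower in AFSCs than in EpiSCs by the edgeR test described below. The study's RT-qPCR describes AFSCs as alone in expressing *Gata* genes of the primitive endoderm. The AFSC counts used here did not show this, and the reason was not tested. Replicate 1 of AFSCs and of ESCs stood apart in the share of counts from mitochondrial genes, with 14.4% and 8.08% against 1.43% to 4.59% in the other samples. In bulk RNA, fewer cells of a type and less RNA per cell cannot be told apart.

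Levels below are normalized read counts per kb, which are counts divided by a size factor for depth and by the gene's summed exon length. That length takes in every annotated exon, which comes to 16870 bases for *Tet2*, 16642 for *Dnmt3a*, 5106 for *Dnmt3b* and 2988 for *Dnmt3l*. Sums, shares and ratios across genes depend on these lengths, while comparisons of the same gene between groups do not. Differences between groups are log2 fold changes with their standard errors (SE) from 1 edgeR fit of all 18 samples, called at an adjusted p below 0.05. Every one of the 10 genes differed among the 6 groups, with edgeR adjusted p values from 1.02e-15 (*Dnmt3l*) to 5.73e-04 (*Tdg*), but 94.4% of all 16901 tested genes did so too. The highest and lowest group means differed 42.7-fold for *Dnmt3a*, 32.9-fold for *Tet2* and 17.7-fold for *Dnmt3b*. *Dnmt3l* spanned more than these, from 1072 normalized read counts per kb in an ESC-ASC sample to a few raw counts in a whole group. The other 6 genes spanned 2.13-fold (*Tdg*) to 6.58-fold (*Tet1*).

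**Figure D1:**
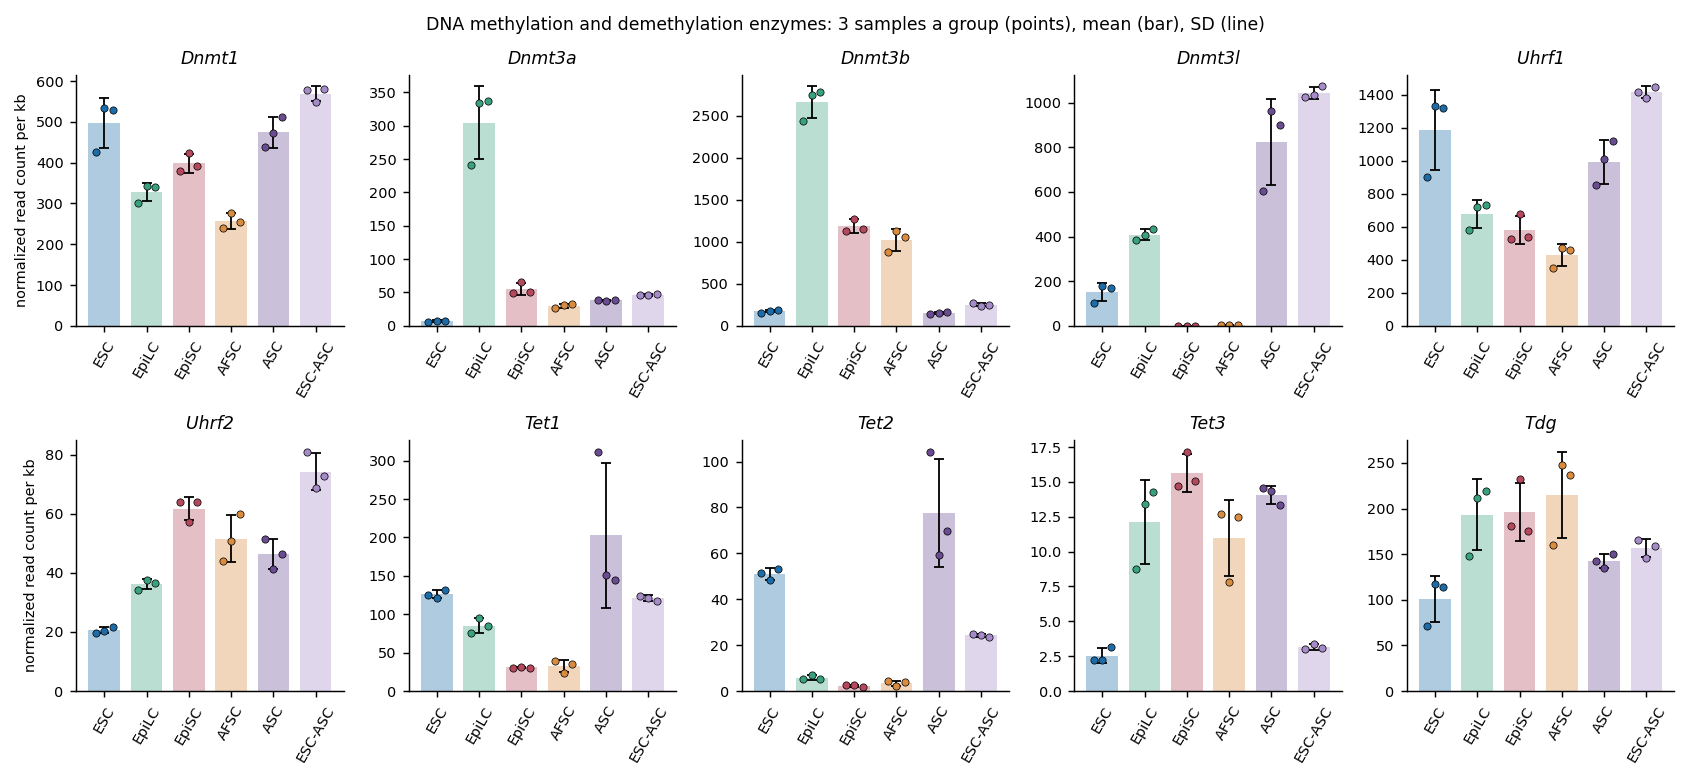
Normalized read count per kb (vertical axis, linear from 0, own scale for each gene) of the 10 genes in the 6 groups; points are the 3 samples, bars the mean and lines the SD. *Dnmt3a* and *Dnmt3b* peaked in EpiLCs (304 and 2659.5), *Dnmt3l* in the ABCL groups (822 and 1043), and *Tet2* was highest in ASCs (77.7), where 1 sample lay far above the others.

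The de novo enzymes differed widely between the groups. *Dnmt3a* stood at 5.92, 7.76 and 7.71 normalized read counts per kb in the 3 ESC samples, 38.6, 37.0 and 38.9 in ASCs, 46.1, 45.5 and 48.2 in ESC-ASCs, 26.0, 30.7 and 32.9 in AFSCs, 49.5, 65.2 and 50.2 in EpiSCs and 241, 334 and 338 in EpiLCs. ESC samples were thus below, and EpiLC samples above, every other sample. In the order EpiLC, EpiSC, ESC-ASC, ASC, AFSC, ESC only the first and the last step passed the edgeR test (adjusted p = 2.14e-10 and 3.92e-09), and the steps among the 4 groups in between did not. Gene counts do not separate the long and short products of *Dnmt3a*, which start at different promoters.

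*Dnmt3b* kept another order. It had 2442, 2748 and 2789 normalized read counts per kb in EpiLCs, 1131, 1277 and 1155 in EpiSCs and 876, 1133 and 1059 in AFSCs. It had 274, 232 and 250.1 in ESC-ASCs, 157, 181 and 189 in ESCs and 136, 147 and 168 in ASCs. All 9 samples outside 2iL and ABCL therefore lay above all 9 within them, with a gap from 274 to 876. ASCs and ESCs overlapped and did not pass the test (log2 -0.25 ± 0.14 SE, 95% interval -0.55 to 0.05, edgeR adjusted p = 0.158), while ESC-ASCs exceeded ASCs 1.68-fold (edgeR adjusted p = 2.53e-04). In every group *Dnmt3b* made up most of the summed *Dnmt3a* and *Dnmt3b* level per kb, from 79.7% in ASCs to 97.2% in AFSCs.

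*Dnmt3l* ran from abundant to nearly absent. It stood at 1023, 1034 and 1072 normalized read counts per kb in ESC-ASCs, 603, 963 and 901 in ASCs, 386, 408 and 432 in EpiLCs and 103, 180.3 and 169 in ESCs. AFSCs held 6, 6 and 7 raw counts and EpiSCs 1, 1 and 0. Every sample of these primed cells lay far below all samples of the other groups, and each step of the order but the first (ESC-ASC over ASC, log2 0.35 ± 0.18 SE, edgeR adjusted p = 0.113) passed the test. Against the 2 counts of the 3 EpiSC samples together the depth-scaled ratio was 3623 for ASCs (95% interval 1003 to 29924), 4588 for ESC-ASCs (1269.9 to 37886), 1800.0 for EpiLCs (498 to 14869) and 697 for ESCs (192 to 5759), intervals that cover counting error only. The ratio of *Dnmt3l* to *Dnmt3a* plus *Dnmt3b* was 4.34 ± 0.888 (SD, n = 3) in ASCs and 3.51 ± 0.275 in ESC-ASCs, against 0.814 ± 0.165 in ESCs and 0.138 ± 0.00579 in EpiLCs. Per kb of summed exon length, *Dnmt3l* thus exceeded its partner enzymes only in the 6 ABCL samples, though ESC replicate 2 came close (0.953). Other exon lengths would move this ratio.

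*Aire*, which encodes the autoimmune regulator, lies on the opposite strand and shares 67 exonic bases with *Dnmt3l*, and counting did not use the strand. *Aire* moved with *Dnmt3l*, with 682 to 784 raw counts in ASCs, 1471 to 2043 in ESC-ASCs, 208 to 294 in EpiLCs, 34 to 49 in ESCs, 2 to 4 in AFSCs and 0 to 1 in EpiSCs. Per kb it was 0.0742 to 0.361 of the *Dnmt3l* level in the samples where *Dnmt3l* was abundant. Which of the shared reads belong to which gene cannot be told apart. Overlapping antisense genes of the other members were at most 13 raw counts in any sample.

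Promoter sequences of *Dnmt3l* and *Dnmt3b*, the cofactor and the enzyme with opposite rankings of the primed cells, differ in CpG content. Methylation of these promoters was not analysed, and the part of CpG content in the levels was not tested. The 250 bases upstream of a RefSeq start (GRCm38.p6) are given 5′ to 3′ on the strand of the gene, with each CpG in capitals. The *Dnmt3l* window at chr10:78049592-78049841 lies inside the gene as Ensembl draws it (chromosome 10, 78041947 to 78063622) and outside its exons. It holds 4 CpG sites, and the other 2 RefSeq starts hold 5 and 3. The *Dnmt3b* window at chr2:153649199-153649448 lies just before the gene (chromosome 2, 153649450 to 153687730) and holds 21.
Dnmt3l: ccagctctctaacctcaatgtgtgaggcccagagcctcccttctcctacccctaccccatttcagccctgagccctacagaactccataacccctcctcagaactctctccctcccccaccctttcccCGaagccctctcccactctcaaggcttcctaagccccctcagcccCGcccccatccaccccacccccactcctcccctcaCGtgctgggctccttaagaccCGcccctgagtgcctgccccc
Dnmt3b: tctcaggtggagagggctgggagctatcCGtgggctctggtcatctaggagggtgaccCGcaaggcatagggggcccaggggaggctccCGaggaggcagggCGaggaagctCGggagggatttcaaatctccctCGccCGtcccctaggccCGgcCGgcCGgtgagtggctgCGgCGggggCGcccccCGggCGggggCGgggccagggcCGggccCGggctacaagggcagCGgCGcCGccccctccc
Over all 32851 windows of this length the median was 6 CpG sites, with quartiles of 2 and 16, so all 3 *Dnmt3l* windows were below the median and *Dnmt3b* was above the upper quartile. Both windows hold GGGCGG, the core of the SP1 motif, searched on both strands and present in 32.7% of all windows, with 2 matches for *Dnmt3l* and 3 for *Dnmt3b*. The E-box CACGTG, in 6.02% of windows, occurs 1 time for *Dnmt3l* and 0 times for *Dnmt3b*.

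The maintenance genes *Dnmt1* and *Uhrf1* varied less. *Dnmt1* stood at 426, 534 and 529.8 normalized read counts per kb in ESCs, 578, 549 and 581 in ESC-ASCs, 438, 473 and 512 in ASCs, 379.9, 423 and 392 in EpiSCs, 302, 342 and 339.9 in EpiLCs and 239, 277 and 255 in AFSCs. *Uhrf1* stood at 904, 1334 and 1322 in ESCs, 855, 1012 and 1118 in ASCs, 1417, 1382 and 1451 in ESC-ASCs, 582, 719.9 and 732 in EpiLCs, 524, 678 and 539.9 in EpiSCs and 350.3, 473 and 459 in AFSCs. For both genes ESC-ASCs had the highest mean and AFSCs the lowest, and the samples of ESCs and ASCs overlapped. Along the *Dnmt1* order the only neighbours that differed were EpiLCs and AFSCs (log2 -0.36 ± 0.13 SE, edgeR adjusted p = 0.0259), a call lost without replicate 1 or 3 of AFSCs or 2 or 3 of EpiLCs (edgeR adjusted p = 0.0676 to 0.081). Along the *Uhrf1* order only the step from ASCs to EpiLCs passed (edgeR adjusted p = 0.0152), and it was lost without replicate 3 of ASCs (log2 0.43, adjusted p = 0.068 by edgeR).

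*Uhrf2*, a relative of *Uhrf1* that does not replace it in maintenance, had another pattern. It stood at 19.7, 20.3 and 21.7 normalized read counts per kb in ESCs, 34.3, 37.6 and 36.5 in EpiLCs, 51.5, 41.3 and 46.5 in ASCs, 43.9, 50.9 and 59.8 in AFSCs, 64.0, 57.2 and 64.0 in EpiSCs and 81.0, 68.9 and 72.9 in ESC-ASCs. Every sample of the other groups lay above all ESC samples, and the 5 comparisons with those samples were each called (edgeR log2 0.81 to 1.83). *Dnmt1* and *Uhrf1* are expressed mostly in S phase, so 20 replication genes were summarised beside them. Their mean log2 level was 8.16 in AFSCs, 8.29 in ASCs, 8.43 in ESC-ASCs, 8.48 in ESCs, 8.52 in EpiSCs and 8.67 in EpiLCs. AFSCs thus had the lowest mean for these genes too, but their samples overlapped those of ASCs (AFSC replicate 2 at 8.35, ASC replicate 1 at 8.09). Of the 20 genes, 6 were called higher and 5 lower in ASCs than in AFSCs by edgeR, beside 64.0% of all genes called. EpiLCs had the highest mean, while their *Dnmt1* and *Uhrf1* were among the lower levels. The part of S phase in the levels of *Dnmt1* and *Uhrf1* was not tested.

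The TET genes split by type. *Tet1* stood at 125, 121 and 131 normalized read counts per kb in ESCs, 124, 122 and 118 in ESC-ASCs and 312, 151 and 145 in ASCs. It stood at 75.6, 95.4 and 85.0 in EpiLCs, 38.9, 23.5 and 35.4 in AFSCs and 30.2, 31.7 and 30.4 in EpiSCs. ASC replicate 1 was above both the other ASC samples, and AFSCs and EpiSCs overlapped below all other samples. *Tet2*, which encodes the TET enzyme without the CXXC domain of its relatives, stood at 51.6, 48.3 and 53.1 in ESCs, 104, 59.1 and 69.9 in ASCs and 24.9, 24.5 and 23.6 in ESC-ASCs. It stood at 5.14, 7.13 and 5.07 in EpiLCs, 4.31, 2.20 and 3.93 in AFSCs and 2.57, 2.66 and 1.87 in EpiSCs. Here ASCs, ESCs, ESC-ASCs and EpiLCs formed 4 steps without overlap, each called (edgeR adjusted p = 0.0189, 1.26e-04 and 1.83e-07), and AFSCs and EpiSCs at the bottom overlapped. The step from ESCs to ASCs was lost without ASC replicate 1 (log2 0.32, adjusted p = 0.155 by edgeR) or ESC replicate 2 (log2 0.56, adjusted p = 0.06 by edgeR). *Tet3*, the TET of the oocyte and zygote, ranked ESCs and the primed cells the other way. As with *Tet1* and *Tet2*, though, *Tet3* was high in ASCs. It stood at 2.24, 2.23 and 3.14 in ESCs and 3.0, 3.39 and 3.10 in ESC-ASCs, but at 14.5, 14.4 and 13.3 in ASCs, 8.72, 13.4 and 14.3 in EpiLCs, 12.7, 7.84 and 12.5 in AFSCs and 14.7, 17.2 and 15 in EpiSCs. The 6 ESC and ESC-ASC samples were below the other 12, and the only called step in the order was between those sets (AFSC over ESC-ASC, log2 1.81, edgeR adjusted p = 2.70e-07).

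The window upstream of the *Tet2* start is shown because it is the CpG-richest among the members, for the gene with the steepest fall from naive to primed cells after *Dnmt3l*. It lies at chr3:133544391-133544640 on the minus strand (GRCm38.p6), inside the Ensembl gene span (chromosome 3, 133463679 to 133545139) and outside its exons.
Tet2: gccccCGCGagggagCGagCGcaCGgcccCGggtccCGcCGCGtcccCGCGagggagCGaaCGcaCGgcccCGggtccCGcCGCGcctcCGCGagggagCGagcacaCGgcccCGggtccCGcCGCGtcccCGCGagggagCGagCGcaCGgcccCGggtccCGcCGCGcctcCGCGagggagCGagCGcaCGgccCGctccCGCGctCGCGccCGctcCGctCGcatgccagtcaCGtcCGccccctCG
It holds 51 CpG sites, more than in 99.9% of all windows. Windows of *Tet1*, *Tet3* and *Tdg* hold 15, 17 and 19. Any part of CpG content in the *Tet2* levels was not tested.

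*Tdg* changed least. It stood at 71.4, 117 and 114 normalized read counts per kb in ESCs, 165, 146 and 159 in ESC-ASCs, 142, 135 and 150.2 in ASCs, 148, 212 and 219 in EpiLCs, 180.5, 233 and 175 in EpiSCs and 161, 248 and 236 in AFSCs. No step between neighbouring groups passed the edgeR test, and replicate 1 was the lowest sample of ESCs, EpiLCs and AFSCs. Replicate 1 was also the lowest sample of 5 groups, all but ESC-ASCs, for *Dnmt1*, *Dnmt3b* and *Uhrf1*, and of 4 for *Dnmt3a*. Its mitochondrial share was the highest of its group in those 5, at 8.08% in ESCs, 4.31% in EpiLCs, 14.4% in AFSCs, 3.48% in ASCs and 4.59% in EpiSCs, and the part of this in the results was not tested.

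Within the TET family, *Tet1* was the largest part of the summed level per kb in every group, from 63.1% in EpiSCs to 82.7% in EpiLCs. The share of *Tet3* was 1.41 ± 0.230% (SD, n = 3) in ESCs, 2.13 ± 0.152% in ESC-ASCs and 5.21 ± 1.61% in ASCs, and it was 32.0 ± 1.20% in EpiSCs, 11.7 ± 1.98% in EpiLCs and 23.4 ± 0.702% in AFSCs. The summed TET level per kb was 179, 172 and 188 in ESCs, 430.3, 224 and 228 in ASCs, 152, 149 and 144 in ESC-ASCs, 89.5, 116 and 104 in EpiLCs, 55.9, 33.5 and 51.8 in AFSCs and 47.5, 51.5 and 47.3 in EpiSCs. Set against it, *Dnmt3a* plus *Dnmt3b* gave a ratio of 1.02 ± 0.0975 in ESCs, 0.712 ± 0.268 in ASCs and 2.01 ± 0.133 in ESC-ASCs. The ratio was 28.8 ± 1.95 in EpiLCs, 24.0 ± 9.64 in AFSCs and 25.5 ± 0.601 in EpiSCs. No sample of the first 3 groups exceeded 2.10 and none of the others was below 16.1. All 3 ESC-ASC ratios (2.10, 1.86 and 2.07) lay above all ESC ratios (0.912, 1.10 and 1.05) and ASC ratios (0.406, 0.822 and 0.906). These are ratios of RNA levels and depend on the exon lengths used. With 3 samples against 3 no exact permutation p below 0.10 is possible, so none was computed.

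**Figure D2:**
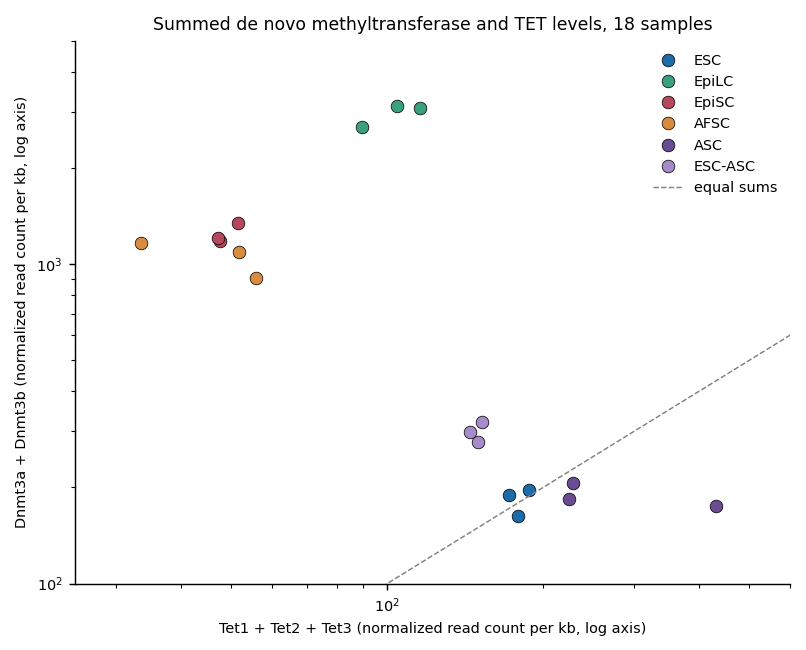
Summed *Dnmt3a* and *Dnmt3b* level (vertical log axis) against summed *Tet1*, *Tet2* and *Tet3* level (horizontal log axis), both in normalized read counts per kb, for the 18 samples; the dashed line marks equal sums. ESC and ASC samples lay near or below the line, ESC-ASCs just above it, and EpiLC, AFSC and EpiSC samples at ratios of 16.1 or more.

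Comparisons with ESCs asked how each state departs from the naive one, and since they share the ESC samples their values stand side by side. In ASCs 6 of 10 members were called, all higher, beside 50.3% of all tested genes (26.4% higher and 23.9% lower). *Tet3* rose 5.38-fold (log2 2.43 ± 0.23 SE, edgeR adjusted p = 7.78e-08), *Dnmt3l* 5.32-fold (2.41 ± 0.19), *Dnmt3a* 5.21-fold (2.38 ± 0.17) and *Uhrf2* 2.22-fold (1.15 ± 0.13). *Tet1* and *Tet2* rose by log2 0.67 ± 0.22 and 0.59 ± 0.20 SE (edgeR adjusted p = 0.0193 and 0.0189), but both calls rested on single samples. Without ASC replicate 1 *Tet1* was log2 0.21, adjusted p = 0.276 and *Tet2* log2 0.32, adjusted p = 0.155 by edgeR, and without ESC replicate 2 they were log2 0.65, adjusted p = 0.0548 and log2 0.56, adjusted p = 0.06. Relative to the ASC mean, genes with over 8000 exonic bases were 0.34 higher (log2) than genes with under 2000 bases in that replicate, against -0.26 and -0.11 in the others, and the part of this in the difference was not tested. Of the 5 members that long, *Tet1* and *Tet2* stood 0.71 and 0.46 above the ASC mean in that replicate (log2), against 0.02 for *Dnmt3a*, 0.04 for *Tet3* and 0.15 for *Uhrf2*. *Dnmt1*, *Dnmt3b* and *Uhrf1* were not called, with 95% intervals of -0.35 to 0.17, -0.55 to 0.05 and -0.65 to 0.09, nor was *Tdg* (log2 0.46 ± 0.20 SE, edgeR adjusted p = 0.0611). *Uhrf1* was called lower without ESC replicate 1 (log2 -0.45, adjusted p = 0.0358 by edgeR), and *Tdg* higher without replicate 1 of AFSCs or EpiLCs or replicate 2 of ESCs (log2 0.46, 0.50 and 0.59, with edgeR adjusted p = 0.0341 to 0.0447). *Tdg* was also called higher under 6 other settings, with DESeq2 size factors, the DESeq2 Wald test, no filter on low counts, at least 10 counts in every sample, thinned counts and the replicate block (log2 0.49 to 0.59, edgeR or DESeq2 adjusted p = 0.018 to 0.046).

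In ESC-ASCs 6 of 10 members were called against ESCs, with a background of 60.1% (30.6% higher and 29.6% lower). *Dnmt3l* rose 6.79-fold (log2 2.76 ± 0.20 SE), *Dnmt3a* 6.39-fold (2.68 ± 0.17), *Uhrf2* 3.56-fold (1.83 ± 0.13), *Tdg* 1.53-fold (0.61 ± 0.20) and *Dnmt3b* 1.42-fold (0.50 ± 0.14), and *Tet2* fell 2.11-fold (-1.08 ± 0.20; edgeR adjusted p = 1.26e-04). The *Tdg* call was lost without ESC replicate 1 (log2 0.41, adjusted p = 0.0744 by edgeR). *Tet1* and *Tet3* overlapped between the groups and were not called, at log2 -0.07 (95% interval -0.54 to 0.40) and 0.29 (95% interval -0.20 to 0.77). Nor were *Dnmt1* and *Uhrf1*, at 0.18 (95% interval -0.08 to 0.44) and 0.24 (95% interval -0.13 to 0.61).

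All 10 members were called in each of the other 3 comparisons with ESCs, where the background was 55.3% for EpiLCs (28.7% higher and 26.6% lower), 60.5% for AFSCs (29.7% higher and 30.8% lower) and 61.2% for EpiSCs (29.2% higher and 32.0% lower). In EpiLCs 5 of the 10 changed 2-fold or more, beside 34.0% of all genes. In EpiLCs *Dnmt3a* rose 42.3-fold (log2 5.40 ± 0.19 SE) and *Dnmt3b* 15.2-fold (3.92 ± 0.16), with *Tet3* (2.25), *Dnmt3l* (1.43), *Tdg* (0.93) and *Uhrf2* (0.81) also higher. *Tet2* fell 8.72-fold (-3.12 ± 0.22), and *Uhrf1* (-0.80), *Dnmt1* (-0.59) and *Tet1* (-0.55) were lower. The *Tet1* call was marginal (edgeR adjusted p = 0.0446) and was lost on leaving out any of 10 single samples of ESCs, EpiLCs, EpiSCs or ESC-ASCs (log2 -0.57 to -0.49, edgeR adjusted p = 0.0519 to 0.118). In AFSCs and in EpiSCs 5 members rose and 5 fell, and *Dnmt3l* was among those that fell in each, to the few raw counts given above. *Dnmt3a* rose by log2 2.05 in AFSCs and 2.92 in EpiSCs, *Dnmt3b* by 2.54 and 2.74, *Tet3* by 2.10 and 2.59, *Uhrf2* by 1.33 and 1.57 and *Tdg* by 1.09 and 0.94. *Uhrf1* had -1.47 and -1.04, both called. *Tet2* fell 14.6-fold in AFSCs and 21.7-fold in EpiSCs, and *Tet1* 3.85-fold and 4.12-fold, with edgeR adjusted p of 7.40e-07 or less. *Dnmt1* was 1.93-fold lower in AFSCs and 1.26-fold lower in EpiSCs, where the call (edgeR adjusted p = 0.0284) was lost without replicate 1 or 3 of EpiSCs or 2 or 3 of ESCs (edgeR adjusted p = 0.0795 to 0.115).

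**Figure D3:**
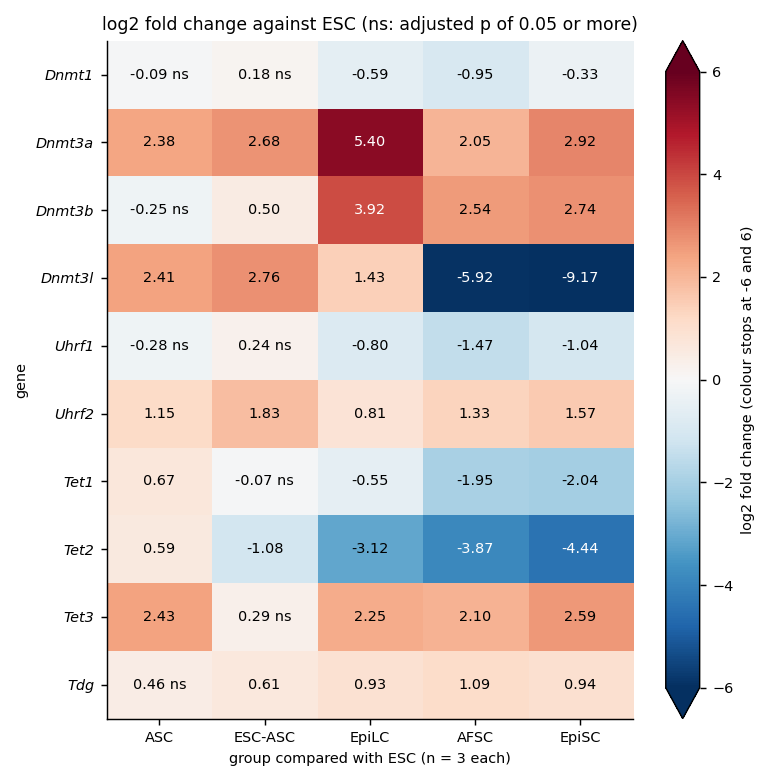
Log2 fold change against ESCs (colour and printed value) of the 10 genes (rows) in the other 5 groups (columns), with ns for an edgeR adjusted p of 0.05 or more; the *Dnmt3l* value of EpiSCs rests on 2 raw counts. *Dnmt3a* and *Uhrf2* were higher in all 5 columns, and *Tet2* was lower in all but ASCs, in columns that share the ESC samples.

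Within ABCL, ESC-ASCs were compared with ASCs, groups that differ in starting cell, in depth and possibly in line. These cannot be told apart. Of the 10 members, 6 were called, 3 higher and 3 lower in ESC-ASCs, beside 50.7% of all genes (23.0% higher and 27.7% lower). Of these, 2 differed 2-fold or more, as did 24.5% of all genes. *Tet3* was 4.42-fold lower in ESC-ASCs (log2 -2.14 ± 0.20 SE, edgeR adjusted p = 9.97e-08), *Tet2* 3.18-fold lower (-1.67 ± 0.20) and *Tet1* 1.66-fold lower (-0.73 ± 0.22). *Dnmt3b*, *Uhrf2* and *Uhrf1* were 1.68-fold, 1.61-fold and 1.43-fold higher. Without ASC replicate 1 the calls of *Tet1* (log2 -0.28, adjusted p = 0.144) and *Uhrf1* (log2 0.42, adjusted p = 0.0754) were lost by edgeR. *Dnmt1*, *Dnmt3a* and *Dnmt3l* were not called, with 95% intervals of 0.01 to 0.53, -0.02 to 0.61 and -0.03 to 0.73 around values that were all above 0. *Tdg* was not called either, at 0.15 (95% interval -0.26 to 0.56). *Dnmt1* and *Dnmt3l* were called higher with the replicate block (log2 0.27, adjusted p = 0.0459, and log2 0.38, adjusted p = 0.0345, by edgeR), *Dnmt1* also by the DESeq2 Wald test (log2 0.26, adjusted p = 0.0269), and *Dnmt3a* with only these groups fitted (log2 0.29, adjusted p = 0.0271 by edgeR). *Dnmt1* and *Dnmt3l* were called higher without ESC replicate 1 too (log2 0.27, adjusted p = 0.0485, and log2 0.35, adjusted p = 0.0466, by edgeR). ESC-ASC libraries were the deepest, and with all libraries thinned to 4961934 counts the same 6 members were called.

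ASCs against the 3 epiblast-stage groups asked what sets the ABCL state apart from primed cells, and the ASC samples are shared between these comparisons. Against AFSCs, the cells they came from, 7 of 10 members were called (64.0% of all genes). *Dnmt3l* rose 321-fold from 19 raw counts in the 3 AFSC samples, *Tet2* 22.0-fold (log2 4.46 ± 0.24 SE), *Tet1* 6.12-fold (2.61 ± 0.24), *Uhrf1* 2.28-fold (1.19 ± 0.18) and *Dnmt1* 1.82-fold (0.86 ± 0.13). *Dnmt3b* fell 6.91-fold (-2.79 ± 0.15, edgeR adjusted p = 1.43e-11) and *Tdg* 1.54-fold, the last call being lost without AFSC replicate 2 (log2 -0.51, adjusted p = 0.0503 by edgeR). *Dnmt3a* had log2 0.33 ± 0.15 SE (edgeR adjusted p = 0.0723) and was called without EpiLC replicate 1 (log2 0.36, adjusted p = 0.0273 by edgeR). It was called higher under 5 other settings too, with DESeq2 size factors, the DESeq2 Wald test, at least 10 counts in every sample, thinned counts and the replicate block (log2 0.34 to 0.41, edgeR or DESeq2 adjusted p = 0.0297 to 0.0474). *Uhrf2* and *Tet3* were not called, at log2 -0.18 (95% interval -0.45 to 0.09) and 0.33 (95% interval -0.08 to 0.74).

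Against EpiSCs 8 members were called (66.5% of all genes) and against EpiLCs 9 (59.8%). A difference of 2-fold or more was called for 4 members against EpiSCs (42.4% of all genes) and for 4 against EpiLCs (34.8%). *Tet2* was 32.6-fold and 13.1-fold higher in ASCs than in EpiSCs and EpiLCs, and *Tet1* 6.54-fold and 2.33-fold higher. *Dnmt3b* was 7.95-fold and 18-fold lower, and *Dnmt3a* 1.45-fold and 8.13-fold lower (edgeR adjusted p = 0.00442 and 2.76e-11). *Uhrf1* was 1.70-fold and 1.44-fold higher. *Uhrf2* was lower than in EpiSCs (log2 -0.42) and higher than in EpiLCs (0.33), the second call being lost without replicate 1 or 3 of ASCs or of EpiLCs (edgeR adjusted p = 0.0541 to 0.113). *Dnmt3l* was 1.97-fold higher than in EpiLCs, and its ratio to the 2 counts of EpiSCs is given above. *Dnmt1* was 1.42-fold higher than in EpiLCs and was not called against EpiSCs, at log2 0.24 (95% interval -0.02 to 0.50). *Tet3* was the member that passed in neither, at -0.16 (95% interval -0.57 to 0.24) and 0.18 (95% interval -0.22 to 0.59). The *Tdg* calls rested on single samples, with log2 -0.48 (edgeR adjusted p = 0.0409, lost without any ASC replicate, EpiSC replicate 2 or ESC-ASC replicate 2, at -0.51 to -0.33) and -0.47 (edgeR adjusted p = 0.048, lost on leaving out any of 12 single samples, at -0.51 to -0.37). Without ASC replicate 1 *Dnmt1* was called higher than in EpiSCs (log2 0.30, adjusted p = 0.0492 by edgeR), and the *Uhrf1* call against EpiLCs was lost without ASC replicate 3 (0.43, adjusted p = 0.068).

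ESC-ASCs gave 10 called members against AFSCs (69.0% of all genes), 8 against EpiLCs (64.1%) and 7 against EpiSCs (72.2%). These comparisons share the ESC-ASC samples. *Tet3* was lower in ESC-ASCs by 3.51-fold, 3.89-fold and 4.95-fold, while ASCs had no called difference from these groups. *Dnmt3b* was 4.11-fold, 10.7-fold and 4.73-fold lower and *Tet2* 6.92-fold, 4.12-fold and 10.3-fold higher. In the same order *Uhrf1* was 3.27-fold, 2.06-fold and 2.43-fold higher and *Dnmt1* 2.19-fold, 1.71-fold and 1.43-fold higher. *Dnmt3l* was 2.52-fold higher than in EpiLCs and 410.0-fold higher than the 19 counts of AFSCs, with its ratio to EpiSCs given above. *Tet1* was 3.67-fold higher than in AFSCs and 3.93-fold higher than in EpiSCs. *Dnmt3a* was higher than in AFSCs (log2 0.62), lower than in EpiLCs (-2.73) and not called against EpiSCs (-0.24, 95% interval -0.56 to 0.07). *Uhrf2* was higher than in AFSCs (0.51) and EpiLCs (1.02). *Tdg* was not called against EpiLCs (-0.32, 95% interval -0.73 to 0.09) or EpiSCs (-0.33, 95% interval -0.74 to 0.08). Calls that turned on single samples were *Tdg* against AFSCs (log2 -0.47, lost without AFSC replicate 2 or 3 or any ESC-ASC replicate, at -0.50 to -0.36), *Tet1* against EpiLCs (0.49, gained without ASC replicate 1 or 3 or AFSC replicate 2, at 0.48 to 0.49) and *Uhrf2* against EpiSCs (0.26, gained without replicate 1 of ASCs or AFSCs or ESC-ASC replicate 2, at 0.26 to 0.33).

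Among the epiblast-stage groups, EpiSCs against EpiLCs gave 6 called members (48.6% of all genes) and AFSCs against EpiLCs 8 (47.1%), 4 of them at 2-fold or more (26.1%). *Dnmt3a* was 5.59-fold lower in EpiSCs and 10.2-fold lower in AFSCs, *Dnmt3b* 2.26-fold and 2.60-fold lower, and *Tet1* 2.81-fold and 2.63-fold lower. *Uhrf2* was higher in both (log2 0.75 and 0.51). *Tet2* was 2.49-fold lower in EpiSCs, and *Dnmt3l* was lower in both, on the raw counts given above. *Dnmt1* and *Uhrf1* were lower in AFSCs (-0.36 and -0.67) and not called in EpiSCs (0.26, 95% interval 0.0019 to 0.53, and -0.24, 95% interval -0.61 to 0.13). *Tet3* and *Tdg* were called in neither, at 0.35 (95% interval -0.06 to 0.75) and 0.01 (95% interval -0.40 to 0.42) in EpiSCs and -0.15 (95% interval -0.56 to 0.26) and 0.15 (95% interval -0.26 to 0.56) in AFSCs. Without AFSC replicate 2 or EpiLC replicate 2, the *Tet2* fall in AFSCs (log2 -0.75) was no longer called (log2 -0.50, adjusted p = 0.108, and log2 -0.56, adjusted p = 0.108, by edgeR). The primed AFSCs and EpiSCs gave the fewest calls of the 15 comparisons, 4 members (39.4% of all genes), 1 of them at 2-fold or more (20.8%). *Dnmt3a*, *Dnmt1* and *Tet3* were lower in AFSCs (log2 -0.87 ± 0.15, -0.62 ± 0.13 and -0.50 ± 0.19 SE), and *Dnmt3l* was higher on 19 against 2 raw counts. The *Tet3* call (edgeR adjusted p = 0.0497) was lost on leaving out any of 12 single samples, at -0.55 to -0.30. *Dnmt3b*, *Tet1* and *Tdg* were not called, at -0.20 (95% interval -0.49 to 0.09), 0.10 (95% interval -0.39 to 0.58) and 0.15 (95% interval -0.27 to 0.56), nor were *Uhrf1* (-0.43, 95% interval -0.80 to -0.06), *Uhrf2* (-0.24, 95% interval -0.51 to 0.02) and *Tet2* (0.57, 95% interval -0.00072 to 1.14). With the replicate block *Uhrf1* was called lower in AFSCs (log2 -0.43, adjusted p = 0.0146 by edgeR), as with DESeq2 size factors and the DESeq2 Wald test. It was called lower as well without replicate 1 of ASCs or of ESCs (log2 -0.43 and -0.43), *Uhrf2* without AFSC replicate 3 (-0.36), and *Tet2* higher without AFSC replicate 2 (0.81).

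ABCL was entered from 2 sides, and the changes ASC against AFSC and ESC-ASC against ESC share no samples, so the difference between them was tested in the same edgeR fit, a test chosen after seeing the data. It passed for 9 of 10 members, against 58.5% of all genes. *Tet2* rose from AFSCs (log2 4.46 ± 0.24 SE) and fell from ESCs (-1.08 ± 0.20), and *Dnmt3b* fell from AFSCs (-2.79 ± 0.15) and rose from ESCs (0.50 ± 0.14). *Tdg* also moved in opposite directions (-0.62 and 0.61). *Dnmt3a* and *Uhrf2* rose from ESCs (2.68 and 1.83) and were not called from AFSCs, while *Tet1*, *Uhrf1* and *Dnmt1* rose from AFSCs (2.61, 1.19 and 0.86) and were not called from ESCs. *Dnmt3l* alone was called in the same direction from both. The difference for *Tet3* was not called ( 0.05 ± 0.31 SE, edgeR adjusted p = 0.912). Each difference is the distance between the groups reached less that between the starting cells, so it can pass where only the latter differ. For each of the 9 members called, AFSCs and ESCs differed by more than ASCs and ESC-ASCs did. The size between AFSCs and ESCs was log2 5.92 for *Dnmt3l* and 2.05 for *Dnmt3a*, against 0.35 and 0.30 between ESC-ASCs and ASCs.

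**Figure D4:**
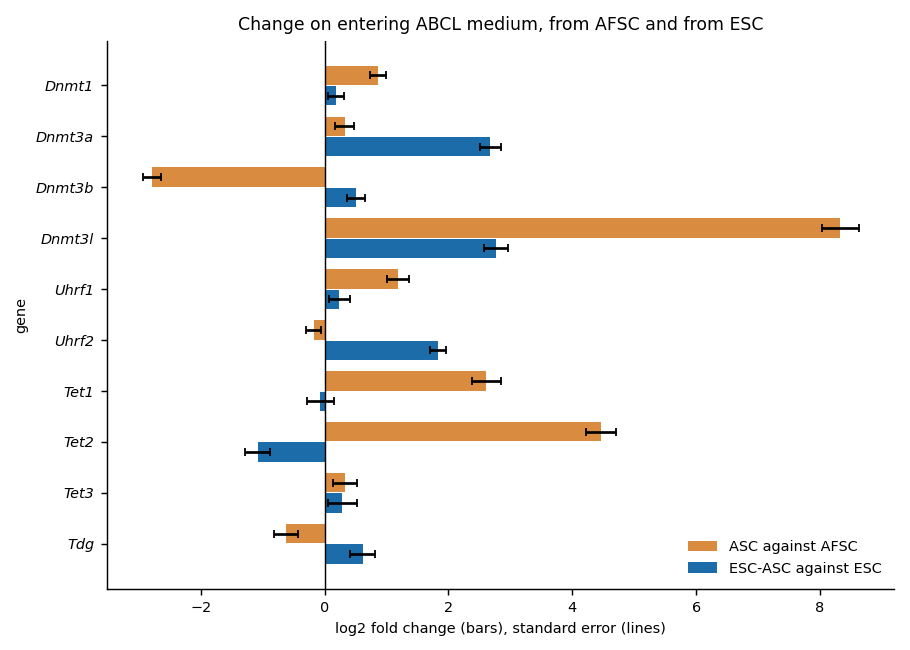
Log2 fold change (horizontal axis; bars) with its standard error (lines) of the 10 genes for ASC against AFSC and for ESC-ASC against ESC. *Dnmt3l* rose on both sides (8.33 and 2.76), and *Dnmt3b*, *Tet2* and *Tdg* changed in opposite directions.

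Among 9 known regulators of the methylation machinery, ASCs against ESCs gave 4 higher and 4 lower, beside 26.4% higher and 23.9% lower over all genes, with a median log2 fold change of -0.39 where all genes had 0.02. *Dppa3*, which encodes Stella, a protein that keeps UHRF1 and DNMT1 off chromatin in the oocyte, ran from 1743 to 3580.3 normalized read counts per kb in ESCs to 189 to 296 in ASCs, 224 to 332 in ESC-ASCs and 118 to 205 in EpiLCs, and held at most 2 raw counts in any AFSC or EpiSC sample. It was lower than in ESCs by log2 -3.29 ± 0.28 SE in ASCs and -3.16 ± 0.27 in ESC-ASCs, and the ranges of the ABCL groups overlapped. *Prdm14*, a repressor of *Dnmt3a*, *Dnmt3b* and *Dnmt3l* in naive cells, was 146 to 181 in ESCs, 114 to 142 in ASCs and 33.2 to 36.1 in ESC-ASCs, and at most 3 raw counts elsewhere. It was not called between ASCs and ESCs and was lower in ESC-ASCs than in ASCs (log2 -1.85 ± 0.17 SE, edgeR adjusted p = 1.90e-07).

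*Zscan4c* and *Zscan4d* of the *Zscan4* cluster, whose bursts are known to come with transient loss of DNMT1 and UHRF1 protein in ESCs, separated the ABCL groups. *Zscan4c* was 682 to 864 normalized read counts per kb in ASCs, 46.8 to 70.9 in ESC-ASCs, 37.6 to 58.4 in EpiLCs and 7.16 to 12.1 in ESCs. All 3 ASC samples lay far above every other sample (log2 6.30 ± 0.30 SE against ESCs and 3.70 against ESC-ASCs, edgeR adjusted p = 1.92e-11 and 8.96e-10). These copies are nearly identical and reads that map to several places were counted at each, so their counts are not separate. *Lin28a*, which encodes an RNA-binding protein, rose in ASCs (log2 1.86 ± 0.16 SE) and more in ESC-ASCs (3.02 ± 0.17), and the latter exceeded ASCs (edgeR adjusted p = 7.31e-06). Against EpiSCs, ASCs gave 7 higher and 2 lower of the 9, beside 35.9% higher and 30.7% lower of all genes.

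Of 27 readers and recruiters of methylation, 7 were higher and 9 lower in ASCs than in ESCs (median log2 -0.22, all genes 0.02), where 50.3% of all genes were called. Against EpiSCs the count was 9 higher and 8 lower, where 66.5% of all genes were called. *Cdca7l*, a relative of the *Hells* partner *Cdca7*, was 2.92-fold higher in ASCs than in ESCs and 4.08-fold lower than in EpiSCs. *Atrx*, a chromatin remodeller, was 2.05-fold higher than in ESCs and 4.01-fold higher than in EpiSCs. *Cxxc1*, which binds unmethylated CpG, was 2.18-fold lower than in ESCs (log2 -1.13 ± 0.11 SE, edgeR adjusted p = 1.27e-07). *Cxxc4*, another CXXC protein, was lower in ASCs than in EpiSCs, at 0.135 against 21.8 normalized read counts per kb.

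Of 18 base excision repair and deamination genes, 17 were tested and 4 were higher and 7 lower in ASCs than in ESCs, beside 50.3% of all genes called. *Gadd45a*, a stress-induced gene linked to demethylation, rose 3.92-fold (log2 1.97 ± 0.21 SE) and the glycosylase genes *Neil3* and *Neil2* 3.0-fold and 2.37-fold (edgeR adjusted p = 1.77e-04 and 2.48e-04), while *Gadd45b* fell 1.92-fold. Against EpiSCs the count was 6 higher and 3 lower, beside 66.5% of all genes called, led by the cytidine deaminase gene *Apobec1* (log2 3.76 ± 0.32 SE) and *Neil2* (3.38 ± 0.28). ESC-ASCs gave 9 higher and 5 lower against ESCs, where all genes gave 30.6% higher and 29.6% lower. Against ASCs they gave 9 higher and 2 lower, where all genes gave 23.0% higher and 27.7% lower. Their libraries were also the deepest, and the part of depth in these counts was not tested.

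A list of 16 genes covers the metabolism of the methyl donor and of alpha-ketoglutarate, which TET enzymes consume. Not all of them supply either compound. Of the 16, 2 (*Ahcyl1* and *Gnmt*) were higher and 8 lower in ASCs than in ESCs (median log2 -0.42, all genes 0.02). Over all genes 26.4% were higher and 23.9% lower. *Idh1*, the cytosolic isocitrate dehydrogenase, fell 2.36-fold (log2 -1.24 ± 0.13 SE, edgeR adjusted p = 4.06e-07), and *Mtrr*, a reductase gene of the methionine cycle, fell 1.98-fold. *Idh1* was also lower in ESC-ASCs (-1.76) and EpiLCs (-2.34) than in ESCs. Of the 20 S phase genes, 8 passed the test in ASCs against ESCs, beside 50.3% of all genes, and each was lower, among them *Tyms* (-0.72), *Fen1* (-0.63) and *Mcm3* (-0.61). Against EpiSCs the S phase count was 2 higher and 8 lower, beside 66.5% of all genes called, and against EpiLCs 2 higher and 12 lower, beside 31.4% higher and 28.4% lower of all genes.

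Germline genes that are known to be kept silent by promoter methylation in somatic cells are a usual readout of the enzymes. Of 16 such genes, 8 were higher and 3 lower in ASCs than in ESCs, at a median log2 of 1.15 beside 0.02 over all genes, of which 26.4% higher and 23.9% lower was called. ESC-ASCs gave 8 higher and 3 lower against ESCs (all genes 30.6% higher and 29.6% lower) and EpiLCs 8 higher and 3 lower (all genes 28.7% higher and 26.6% lower). All 16 were higher in ASCs than in EpiSCs, beside 35.9% higher and 30.7% lower of all genes. In EpiSCs *Rpl10l*, *Stk31*, *Taf7l*, *Asz1*, *Ddx4* and *Dpep3* were at 0 in every sample, and 15 of 16 genes were lower than in ESCs, beside 29.2% higher and 32.0% lower of all genes. Those genes at 0 passed the count filter only through other groups. The list was also chosen with earlier results of these data known, so its counts against EpiSCs are a description and not a test. *Dazl*, an RNA-binding protein of germ cells, averaged 432 normalized read counts per kb in ESCs, 46.7 in ESC-ASCs, 250.2 in ASCs and 44.5 in EpiLCs, beside 0.0999 in EpiSCs and 0 in AFSCs. *Mael*, a gene of the piRNA pathway, was 4.15 in ESCs and rose to 51.0 in ASCs (log2 3.60 ± 0.31 SE, edgeR adjusted p = 6.83e-08), 91.5 in ESC-ASCs and 115 in EpiLCs. *Taf7l* (3.28), *Slc25a31* (2.86) and *Asz1* (2.42) also rose in ASCs, and *Dazl*, *Tuba3a* and *Rpl10l* fell. *Rpl10l* and *Tuba3a* belong to families of near-identical copies, and their counts may hold reads of other copies. *Dnmt3l* itself followed the same split, detected in ESCs, EpiLCs and both ABCL groups and at 7 raw counts or fewer in every AFSC and EpiSC sample.

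**Figure D5:**
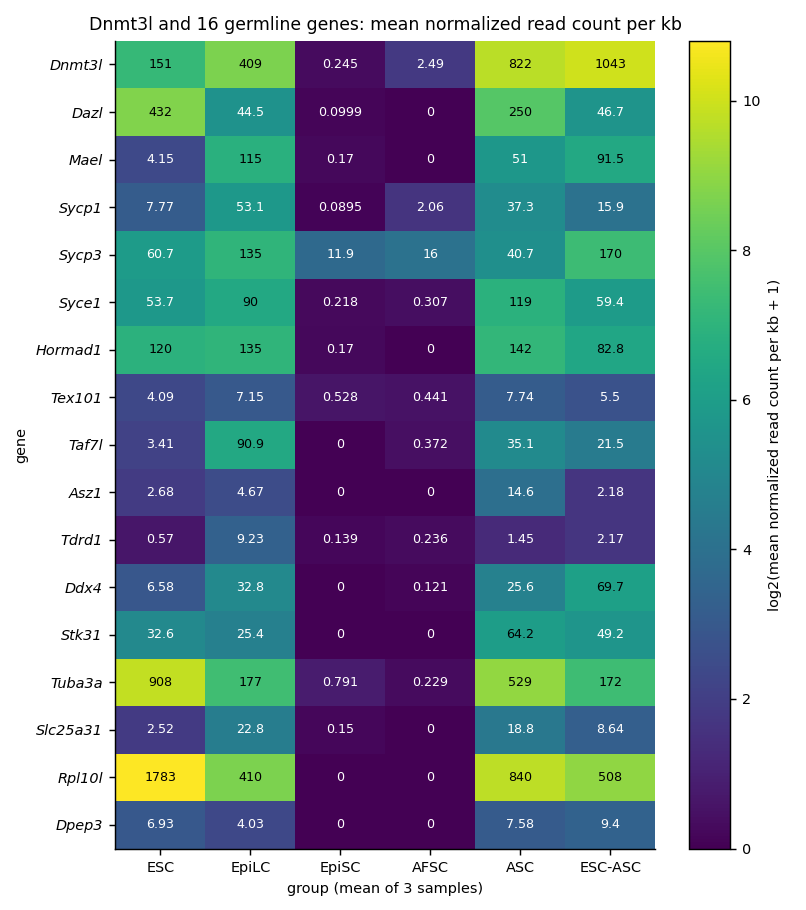
Mean normalized read count per kb over the 3 samples of a group (printed value; colour is log2 of the mean plus 1) of *Dnmt3l* and 16 germline genes (rows) in the 6 groups (columns). In the EpiSC and AFSC columns all means were below 3 apart from *Sycp3* (11.9 and 16), and in ESCs, EpiLCs, ASCs and ESC-ASCs they ranged from 0.570 (*Tdrd1*, ESCs) to 1783 (*Rpl10l*, ESCs).

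The genes whose levels tracked *Dnmt3b*, *Dnmt3l* and *Tet2* most closely were found by Pearson's r of log2 levels over the 18 samples, among 16891 other genes. For *Dnmt3b* they were *Snrpn* (0.990), *Gm38393* (0.985), which overlaps *Snrpn* on chromosome 7, and *Jakmip2* (0.977). For *Dnmt3l* they were *Prss41* (0.990), *Psma8* (0.987) and *Sohlh2* (0.984), of which *Psma8* and *Sohlh2* are known as germ cell genes. For *Tet2* they were *Alpl* (0.990), *Kat6b* (0.988) and *B4galt6* (0.984), and *Alpl* encodes the tissue-nonspecific alkaline phosphatase that stains pluripotent colonies. The 18 points fall into 6 groups that share their medium, so these values describe the pattern over groups.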

How the data were processed

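PolyA RNA of bulk cultures was made into directional libraries and sequenced in 18 samples. The authors mapped the reads with TopHat2 to GRCm38 and, per the file headers, used featureCounts 1.5.0-p1 to count fragments on Ensembl release 86 exons. What they deposited are whole-number counts per gene without any normalization. Counting ignored the strand, required an overlap of 10 bases, and counted fragments on several genes or at several places each time. Groups came from the labels, no sample was left out, and the labels were followed where file headers differ: AFSC headers carry the name ASC, ASC headers the name ABCL, and ESC-ASC headers name another output folder and a sample name that no label mentions. By the correlation of deviations from the group means, the replicate numbers paired the samples in 2 of the 15 pairs of groups (ESC with EpiLC and with AFSC, all 3 correlations over 0.1, from 0.192 to 0.511), a hint from the data and not from the labels. Replicate 1 alone correlated in every pair among ESCs, EpiLCs, AFSCs and EpiSCs (0.257 to 0.511).

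Here counts were tested in R 4.3.3 with edgeR 4.0.16 and limma 3.58.1 (TMM scaling, robust quasi-likelihood fit of all 18 samples, F test, Benjamini-Hochberg adjustment within each comparison) for 16901 genes, those that reached 10 counts in 3 samples or more. Normalized read counts per kb were scaled by the size factors of DESeq2 1.42.0 and then by each gene's summed exon length. Standard errors are the log2 fold change divided by the square root of F. DESeq2 was also an alternative test. The common dispersion was 0.0283. Precision is set by counts of 4961934 to 18071600 a sample; counting intervals are exact at 95% and cover counting error only. Tables and figures used Python 3.11.15, numpy 2.4.6, pandas 2.3.3, scipy 1.17.1 and matplotlib 3.10.9. Promoter windows were 250 bases upstream of RefSeq starts in GRCm38.p6. The scripts were tested on simulated data for ASCs against ESCs. There edgeR recovered 80% of 2-fold and 100% of 4-fold changes, and DESeq2 79% and 100%. Of the genes called, 5.26% were false by edgeR and 10.5% by DESeq2. The simulation changed a small set of well-counted genes in ASCs only, equally up and down, with the same spread for every gene. In the real comparison 50.3% of all genes were called, so these rates need not hold there.

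The 10 genes and the gene lists were chosen with earlier results of these data known. All 10 genes are reported in every comparison. From each further list the text names up to 4 genes called with the largest changes in ASCs against ESCs or EpiSCs, and not every such gene is given. Genes named beyond that rule (*Aire*, *Dazl*, *Idh1* in other groups and the like) were chosen after their values were seen.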

Additional observations from a re-analysis of the deposited data

Results flagged for a closer look

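The change on entering ABCL differed between the 2 starting cells for 9 members by the edgeR test of the difference itself. The value is the log2 fold change of ASC against AFSC minus that of ESC-ASC against ESC. This test was chosen after seeing the data. Each value is the distance between the groups reached less that between the starting cells, so it can pass where only the latter differ. For each of the 9 members, AFSCs and ESCs differed by more than ASCs and ESC-ASCs did. *Dnmt1*, *Dnmt3a*, *Dnmt3l* and *Tdg* were not called between ESC-ASCs and ASCs, the groups reached. The value was 5.56 for *Dnmt3l*, 5.54 for *Tet2*, 2.68 for *Tet1*, 0.95 for *Uhrf1* and 0.68 for *Dnmt1*. It was -3.29 for *Dnmt3b*, -2.35 for *Dnmt3a*, -2.01 for *Uhrf2* and -1.23 for *Tdg*. The edgeR adjusted p ran from 2.48e-11 (*Tet2*) to 0.00287 (*Uhrf1*), beside 58.5% of all tested genes called, and leaving out any of the 18 samples kept all 9 calls, with adjusted p of at most 0.0104. Groups had 3 samples, so single outlying samples were not tested for.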

How the results depend on the processing

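Over the 150 fold changes of the 10 genes in the 15 comparisons, direction and side of the threshold were kept for 146 with DESeq2 size factors in the edgeR fit, 142 with the DESeq2 Wald test, 142 with no filter on low counts, 138 of those tested with only the 2 compared groups in the fit, and 143 with all libraries thinned to 4961934 counts. With at least 10 counts in every sample 10821 genes were left, *Dnmt3l* was not tested, and 125 were kept; there *Dnmt1* in ASCs against ESCs had log2 0.034 in place of -0.09, called in neither (edgeR adjusted p = 0.825 and 0.578). AFSCs against EpiSCs gave 2 called members under that filter and 2 with only those groups fitted. A minimum of 2-fold left 5 called members in EpiLCs against ESCs, 4 in ASCs against EpiLCs, 4 in ASCs against EpiSCs, 4 in AFSCs against EpiLCs, 2 in ESC-ASCs against ASCs and 1 in AFSCs against EpiSCs. Calls lost under 3 or more of these settings were *Tdg* in ASCs against EpiLCs (edgeR and DESeq2 adjusted p = 0.0545 to 0.104), *Tdg* in ASCs against EpiSCs (0.0519 to 0.0981 by edgeR), *Tdg* in ESC-ASCs against AFSCs (0.0501 to 0.0507) and *Tet3* in AFSCs against EpiSCs (0.0612 to 0.154). Calls gained under 3 or more were *Tdg* in ASCs against ESCs (edgeR and DESeq2 adjusted p = 0.0253 to 0.046), *Dnmt3a* in ASCs against AFSCs (0.0297 to 0.0474) and *Uhrf2* in ESC-ASCs against EpiSCs (0.00769 to 0.0488). The cause was not tested.

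Leaving out each sample in turn kept 2611 of 2700 values on their side and in their direction. Members called then ran from 3 to 5 in AFSCs against EpiSCs, from 4 to 8 in ESC-ASCs against ASCs and from 4 to 7 in ASCs against ESCs, and at least 5 were called in the other 12 comparisons. Values that crossed 0, called under none of these settings, were *Tdg* in EpiSCs against EpiLCs (-0.14 to 0.11), *Tet3* in AFSCs against EpiLCs (-0.32 to 0.045), *Tet1* in AFSCs against EpiSCs (-0.047 to 0.29) and the *Tet3* difference between the changes into ABCL (-0.15 to 0.16, and -0.00233 with no filter on low counts).

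In the replicate block fit, which adds a term for the number in the labels, 5 further member values were called and none was lost, *Tdg* in ASCs against ESCs (0.50, edgeR adjusted p = 0.018), *Dnmt3a* in ASCs against AFSCs (0.34, 0.0317), *Uhrf1* in AFSCs against EpiSCs (-0.43, 0.0146), and *Dnmt1* and *Dnmt3l* in ESC-ASCs against ASCs (0.27, 0.0459 and 0.38, 0.0345). Deviations of same-numbered samples correlated at a mean of 0.0938 over 45 pairs (-0.226 to 0.511), beside -0.0441 over 90 differently numbered pairs. Of 90 comparisons, 40 put a sample closest to its own number. Among ESCs, EpiLCs, AFSCs and EpiSCs, replicate 1 correlated in every pair of groups (0.257 to 0.511) and replicate 2 at 0.0309 to 0.292. Replicate 3 of EpiSCs went the other way (-0.136 to -0.116). What same-numbered samples share was not tested, and the main fit has no term for it. In the ESC comparisons with EpiLCs and AFSCs the block changed no call of a member. Depth limits *Dnmt3l* in AFSCs and EpiSCs, where values rest on 19 and 2 counts.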
